A study of Mus musculus with 2 samples.

Results

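The locus of the genes Grem1, Fmn1 and Scg5 was examined in chromatin immunoprecipitation followed by sequencing (ChIP-seq) of CTCF from mouse limbs at embryonic day 14.5. It was taken as chromosome 2 from 113.1 to 114 Mb on the mm10 build, a stretch of 900 kb. The members were all peaks of the authors' optimal list with a summit in that stretch, which gave 14 of 49970 peaks. Each member was placed either in an intron of Fmn1 (7 peaks) or outside Fmn1 (7 peaks). The series held 2 libraries of 1 group. Both came from limbs of strain B6NCrl embryos of mixed sex, with no treatment or altered allele given in the labels. The labels number them as biological replicates 1 and 2 but give both the same tissue sample, made of pulverised limbs pooled over several dissections, so the spread between them may be technical. There was no second condition, and no test between groups was possible. The signal of a peak is the authors' measure of its strength, on the scale of each list. Neither its normalization nor the read depth behind it is given in the sources used here. In pulverised tissue, CTCF bound in fewer cells and CTCF bound less in every cell cannot be told apart, and the lists hold no expression values against which the labelled tissue could be checked.

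CTCF is a zinc finger protein that binds a long, asymmetric DNA motif. Together with cohesin it anchors chromatin loops, preferentially between sites whose motifs point towards each other. Grem1 encodes gremlin, a secreted BMP antagonist that links sonic hedgehog signalling in the posterior limb bud to fibroblast growth factor signalling in the apical ridge. Fmn1 encodes a formin, a protein that nucleates actin filaments, and its introns hold enhancers that act on Grem1 in the limb. Mouse limb deformity mutations that map to Fmn1 act by lowering Grem1 expression. Scg5 encodes secretogranin V (7B2), a chaperone of the prohormone convertase Pcsk2.

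Fmn1 is transcribed from the plus strand and Grem1 and Scg5 from the minus strand, so Grem1 and Fmn1 run towards each other. Fmn1 spans chr2:113327736-113716767, Grem1 chr2:113746164-113758646 and Scg5 chr2:113776362-113829121 in the GENCODE M21 annotation. Sites are named here by their distance from the Grem1 start along the plus strand, with negative distances on the Fmn1 side and positive distances on the Scg5 side.

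All 14 members held a CTCF motif, and these sites are shown because their letters and their strand carry the orientation results. Each line gives the site in capitals within 10 letters on either side, 5′ to 3′ on the strand of the motif, from the GRCm38 (mm10) reference genome. The 7 sites in Fmn1 introns come first.

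Fmn1 intron 2, −368 kb, chr2:113391111-113391150, plus strand: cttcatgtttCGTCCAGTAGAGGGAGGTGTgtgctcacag
Fmn1 intron 2, −359.6 kb, chr2:113399047-113399086, minus strand: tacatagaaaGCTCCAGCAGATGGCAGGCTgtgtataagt
Fmn1 intron 3, −328 kb, chr2:113431072-113431111, minus strand: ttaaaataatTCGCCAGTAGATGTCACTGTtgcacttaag
Fmn1 intron 4, −289 kb, chr2:113469706-113469745, minus strand: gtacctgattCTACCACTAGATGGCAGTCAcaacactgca
Fmn1 intron 5, −264 kb, chr2:113494876-113494915, plus strand: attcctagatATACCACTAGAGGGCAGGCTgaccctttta
Fmn1 intron 7, −223 kb, chr2:113535809-113535848, plus strand: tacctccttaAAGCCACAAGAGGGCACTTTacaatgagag
Fmn1 intron 15, −110.3 kb, chr2:113648346-113648385, minus strand: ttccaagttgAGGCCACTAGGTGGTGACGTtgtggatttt
Intergenic, −524 kb, chr2:113234730-113234769, minus strand: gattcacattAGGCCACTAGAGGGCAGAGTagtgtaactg
Intergenic, −456 kb, chr2:113302568-113302607, minus strand: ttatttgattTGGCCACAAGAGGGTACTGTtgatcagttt
Intergenic, −453 kb, chr2:113305521-113305560, plus strand: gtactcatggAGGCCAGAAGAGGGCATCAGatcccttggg
Scg5 intron, 19.6 kb, chr2:113778237-113778276, minus strand: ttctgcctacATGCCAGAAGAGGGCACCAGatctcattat
Scg5 intron, 49.2 kb, chr2:113807865-113807904, minus strand: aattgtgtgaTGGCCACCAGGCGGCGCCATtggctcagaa
Scg5 intron, 65.5 kb, chr2:113824094-113824133, minus strand: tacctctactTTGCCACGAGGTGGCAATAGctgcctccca
Intergenic, 108 kb, chr2:113866319-113866358, plus strand: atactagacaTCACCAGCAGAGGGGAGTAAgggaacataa

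The motif was started from a CTCF core sequence set beforehand and refined on the 1000 strongest peaks of autosomes other than chromosome 2. Its consensus was TNGCCACNAGGGGGCGCNNN, where N stands for a position with no fixed letter. A site was called when a score (log2 odds against equal base frequencies) of at least 7.66 was reached within 50 bp of the summit. This level was reached by 5% of windows 1 kb away. By this rule 14 of 14 members held a site, against 83.2% of optimal peaks on chromosome 2. At the stricter score of 12.57, reached by 1% of the distant windows, 14 of 14 members still passed, against 62.3% of optimal peaks on chromosome 2. The median motif score was 17.1 over the members and 14.2 over all optimal peaks. The site at 49.2 kb in Scg5 scored 21.7, above 96.7% of optimal peaks, and had 14 of the 15 fixed letters of the consensus. The lowest scores were 13.6 at the 108 kb site and 14.1 at the −359.6 kb site.

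The 3 peaks that bound the Grem1 stretch or are the strongest of the locus are shown whole, on the plus strand, with the site in capitals. The first 2 lie on either side of Grem1, and the third lies near the Scg5 start.

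Peak at −110.3 kb, chr2:113648291-113648475, plus strand: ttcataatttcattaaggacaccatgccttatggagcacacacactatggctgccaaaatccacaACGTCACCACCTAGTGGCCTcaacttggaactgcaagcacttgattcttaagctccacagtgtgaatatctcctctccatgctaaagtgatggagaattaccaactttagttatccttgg
Peak at 19.6 kb, chr2:113778099-113778374, plus strand: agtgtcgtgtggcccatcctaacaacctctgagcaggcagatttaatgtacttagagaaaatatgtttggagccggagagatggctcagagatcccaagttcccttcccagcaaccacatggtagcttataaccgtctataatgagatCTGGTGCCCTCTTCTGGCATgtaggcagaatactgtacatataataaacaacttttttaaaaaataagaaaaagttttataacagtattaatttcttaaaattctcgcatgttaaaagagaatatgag
Peak at 65.5 kb, chr2:113824005-113824223, plus strand: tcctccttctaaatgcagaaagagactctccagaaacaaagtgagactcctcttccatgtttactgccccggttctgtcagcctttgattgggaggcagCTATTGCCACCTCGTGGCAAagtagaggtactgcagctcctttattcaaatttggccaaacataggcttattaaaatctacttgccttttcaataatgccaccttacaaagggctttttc

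The members were spread over the locus, with none at a start of Grem1, Fmn1 or Scg5. The locus held 1.56 peaks per 100 kb (exact Poisson 95% interval 0.850 to 2.61), against 1.83 over all main chromosomes and 2.09 on chromosome 2. Within it, Fmn1 held 1.80 peaks per 100 kb (0.723 to 3.71) over its 389.0 kb, against 1.37 (0.551 to 2.82) over the other 511.0 kb. The intervals overlap widely and cover counting error only. Cutting the genome into 2882 windows of 900 kb gave a median of 13 peaks per window, with quartiles of 5 and 25. Of these windows, 1457 held fewer peaks than the locus. With tied windows split evenly, the count of 14 was at percentile 51.9, near the middle.

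**Figure D1:**
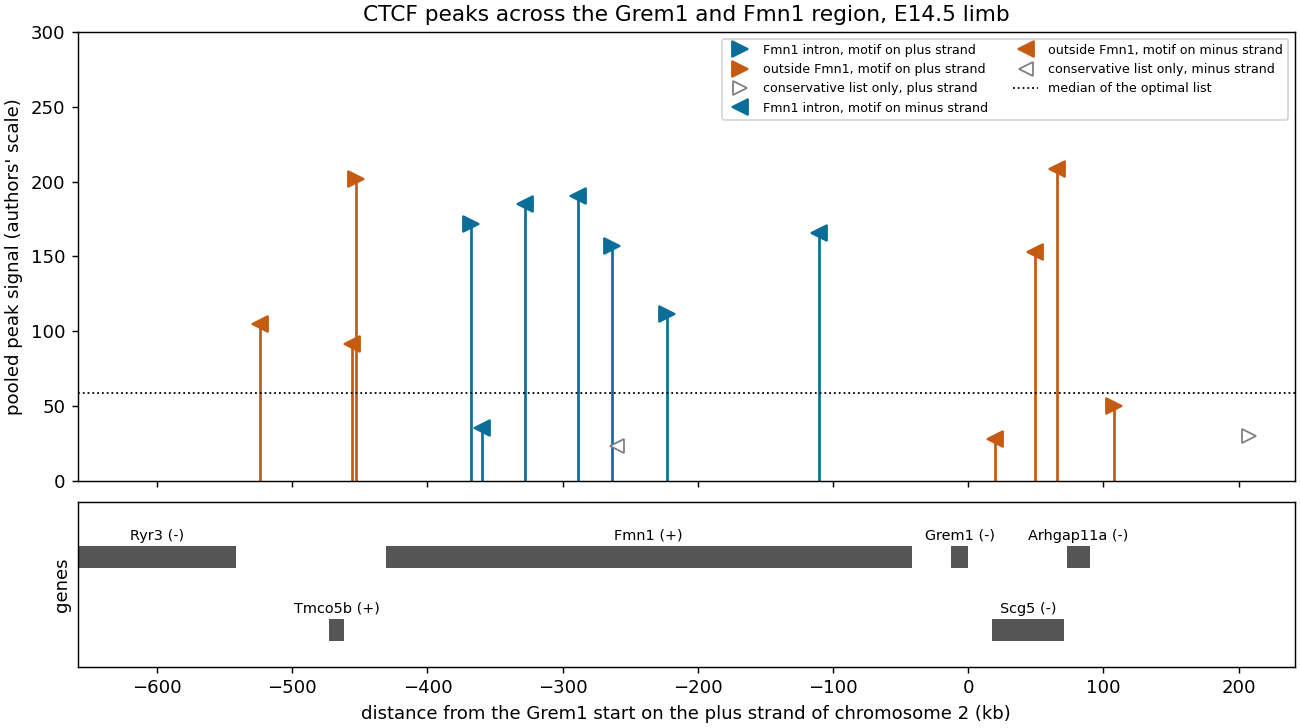
Pooled signal of each CTCF peak (vertical axis, scale of the authors' pooled list) against its distance from the Grem1 start in kb (horizontal axis), with protein-coding genes below and their strands in brackets. Blue marks peaks in Fmn1 introns and orange those outside, arrowheads give the strand of the motif, open arrowheads are the 2 peaks of the conservative list alone, and the dotted line is the median of the optimal list (58.4). In Fmn1, 6 of the 7 peaks stand at 111.4 to 190.7, and the optimal peak nearest to the Grem1 start is the low one at 19.6 kb.

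The members ranked higher by strength than by number. Their median signal was 154.7, against 58.4 over all optimal peaks. Of the members, 11 of 14 were at or above 58.4, and 8 of 14 were in the upper quartile of the list. Among the 1750 windows of 900 kb with at least 10 peaks, 1744 (99.7%) had a lower median signal than the locus, and the median of these windows was 59.9. Fmn1 ranked likewise among long genes. Of 359 protein-coding genes of at least 300 kb with at least 5 peaks, 352 (98.1%) had a lower median signal than the 165.5 of Fmn1, and their median was 48.6. In peak number Fmn1 was more ordinary, with a density at percentile 69.8 of 567 genes of that length, ties split evenly. Their median was 1.25 per 100 kb. Both rankings by signal were chosen after the data were examined and are descriptions without a test. In the conservative list, which adds 2 peaks to the locus with signals of 23.0 and 29.5, the locus median was 132.0 and 97.8% of windows ranked lower.

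**Figure D2:**
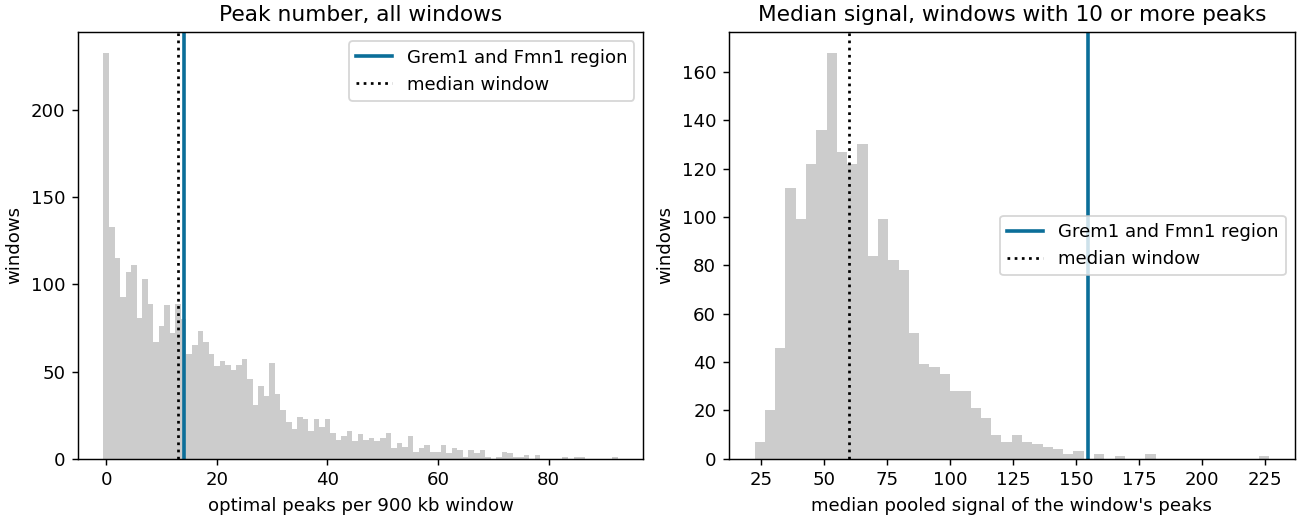
Left, number of windows of 900 kb (vertical axis) by their count of optimal peaks (horizontal axis). Right, number of windows with at least 10 peaks by the median pooled signal of those peaks. The blue line is the Grem1 and Fmn1 region, at 14 peaks and a median signal of 154.7, and the dotted line is the median window, at 13 peaks and 59.9.

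The 7 peaks in Fmn1 introns had a median signal of 165.5, against 104.6 for the 7 outside. The ranges overlapped almost fully, from 35.5 to 190.7 in Fmn1 introns and from 27.7 to 208.3 outside. The longest Fmn1 transcript has 19 exons and 18 introns, and 6 of these introns held a member. Intron 2, of 63.8 kb, was the one with 2 members. The −368 kb peak in it had a pooled signal of 171.5, with 84.5 in replicate 1 and 86.5 in replicate 2. The −359.6 kb peak in the same intron had a pooled signal of 35.5, with 16.8 and 16.4. These neighbours, 7.94 kb apart, thus differed in both replicates by far more than the replicates did. Both, and the peak in intron 3, also lie in an intron of Gm13963, an annotated antisense transcript.

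The 3 peaks of introns 3, 4 and 5 were all strong. The −328 kb peak in intron 3 had 94.4 in replicate 1 and 89.2 in replicate 2 (pooled 184.8). In intron 4 the −289 kb peak had 99.8 and 89.6 (pooled 190.7), the highest pooled signal within Fmn1. The −264 kb peak of intron 5 had 78.8 and 76.8 (pooled 156.7). The replicates of these peaks differed by 0.01, 0.08 and −0.04 on the log2 scale, once each replicate was scaled by its median over the optimal peaks. The −223 kb peak in intron 7 was weaker than these, with 51.2 in replicate 1 and 59.9 in replicate 2 (pooled 111.4). The −110.3 kb peak in intron 15, the Fmn1 member nearest to Grem1, had 83.2 and 82.3 (pooled 165.5). Introns 1, 6, 8 to 14 and 16 to 18 held no member. Their lengths ran from 1.2 kb for intron 12 to 36.0 kb for intron 1.

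On the far side of Fmn1, 3 intergenic peaks lay before its start. The −453 kb peak, 22198 bp upstream of the Fmn1 start, was the second strongest of the locus, with 91.9 in replicate 1 and 107.8 in replicate 2 (pooled 201.9). The −456 kb peak, 2.93 kb from it and 16872 bp downstream of the start of Tmco5b, had 38.3 and 50.6 (pooled 91.4). At −524 kb, 17647 bp upstream of Ryr3, a gene for a calcium release channel, the values were 64.5 and 40.9 (pooled 104.6). The replicates of this last peak were further apart than at most members, with the higher value in replicate 1, also after scaling (log2 ratio 0.58). The SD of this ratio over all optimal peaks with both values, weak and strong together, was 0.50.

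Scg5 introns held 3 members, of which 2 were strong. The 65.5 kb peak, 5009 bp downstream of the Scg5 start, was the strongest of the locus at 208.3, with 101.2 in replicate 1 and 104.9 in replicate 2. The 49.2 kb peak, the one with the highest motif score, had 74.9 and 77.5 (pooled 152.7). The 19.6 kb peak was the weakest member at 27.7, with 13.1 and 13.7, and was also the member nearest to Grem1. It lies 19591 bp upstream of the Grem1 start. It was the single member below the top deposited score of 1000, with 808, and the single one whose −log10 q-value was below the cap. At 108 kb, 17670 bp upstream of Arhgap11a, the last member had 32.3 in replicate 1 and 17.4 in replicate 2 (pooled 49.6).

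**Figure D3:**
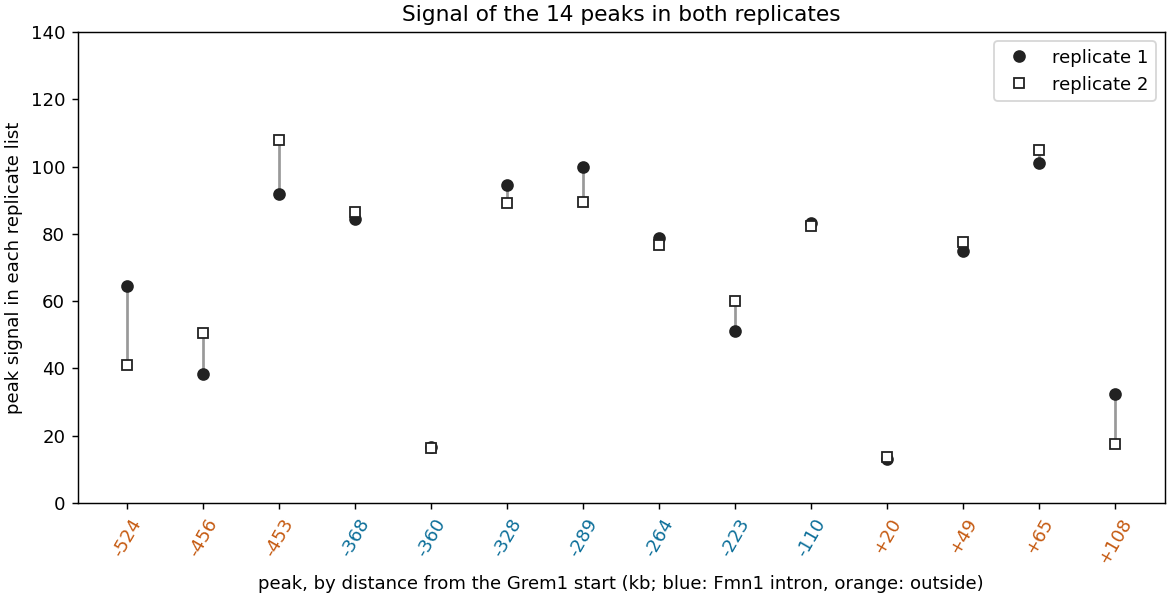
Peak signal in replicate 1 (filled circles) and replicate 2 (open squares), each on the scale of its own list (vertical axis), for the 14 members in order along the chromosome (horizontal axis, distance from the Grem1 start in kb). The replicates lie close together at most strong peaks. The −524 kb and 108 kb peaks have the widest ratios of the members, with replicate 1 higher before scaling and after it (log2 ratios 0.58 and 0.82). The SD of the ratio over all optimal peaks with both values, weak and strong together, was 0.50.

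The replicates ranked the members alike, with a Spearman coefficient of 0.956 over the 14 peaks, a description of peaks that share 2 libraries from 1 pool. After scaling, the log2 ratio of replicate 1 to replicate 2 ran from −0.30 to 0.08 in Fmn1 introns and from −0.48 to 0.82 outside. Its SD was 0.34 over the members, against 0.50 over the 48703 optimal peaks with a value in both replicates. The widest ratios belonged to the 108 kb peak (0.82), the −524 kb peak (0.58) and the −456 kb peak (−0.48). All 3 have a width of 276 bp, which 5 members share and which 32611 of the 49959 optimal peaks on the main chromosomes share. The 5 members of that width had signals of 27.7 to 104.6, and the 9 narrower ones, of 110 to 219 bp, had 111.4 to 208.3. Summits in the replicate lists lay within 18 bp of the pooled summit in replicate 1 and within 26 bp in replicate 2. All 14 members were among the strongest 49970 peaks of both replicates, against 81.2% of all optimal peaks. All 14 were also in the conservative list, against 87.6%. The SD of 0.50 and both of these shares cover optimal peaks of every strength, whereas most members are stronger than the median peak. No comparison with peaks of like signal was made, so these contrasts do not set the locus apart from other strong peaks.

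**Figure D4:**
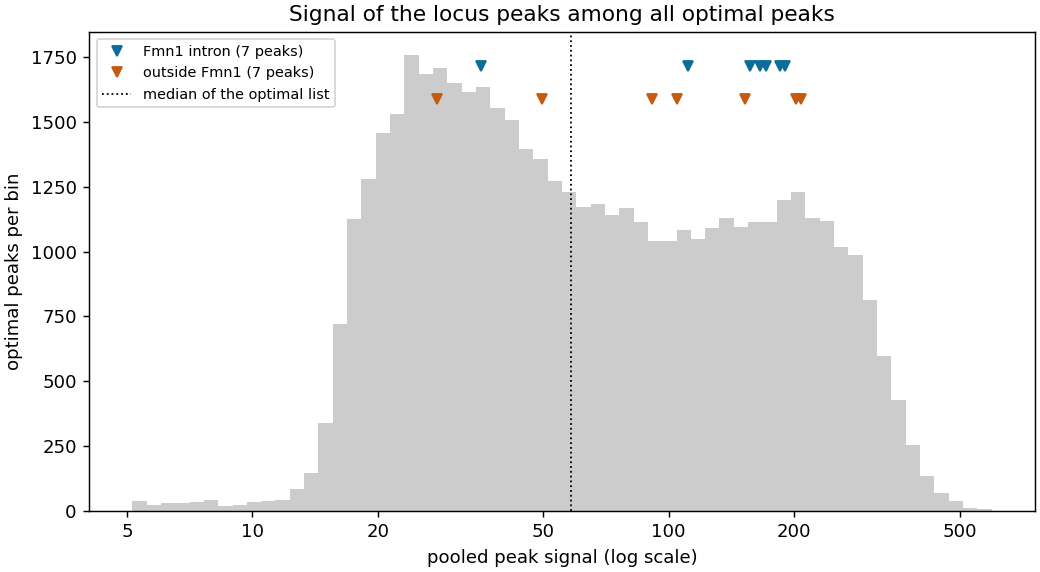
Number of optimal peaks (vertical axis) by pooled signal (horizontal axis, log scale), with the 7 peaks in Fmn1 introns (blue) and the 7 outside (orange) as triangles whose height has no meaning. The dotted line is the median of the list (58.4), and 11 of the 14 triangles lie to its right.

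Signal and motif score showed little relation within the locus. The Spearman coefficient between them was 0.12 over the 14 members and 0.47 over all optimal peaks, both as descriptions. The members all held a motif, with scores of 13.6 to 21.7, whereas 41479 of the 49959 optimal peaks on the main chromosomes held one. The 2 coefficients thus cover unlike ranges of score, and the first rests on few peaks. The 19.6 kb peak joined the lowest signal (27.7) to a score of 18.1, while the −453 kb peak joined 201.9 to a score of 15.5. GC content in the 201 bp around the summit had a median of 43.0% in the members, against 49.8% in all optimal peaks.

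**Figure D5:**
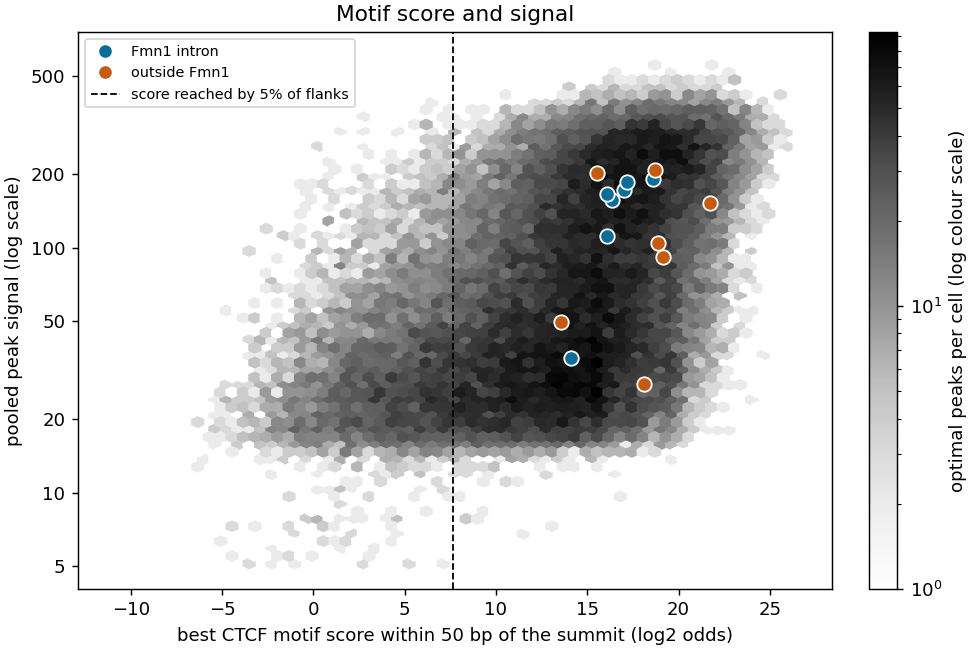
Pooled signal (vertical axis, log scale) against the best CTCF motif score within 50 bp of the summit (horizontal axis, log2 odds) for all optimal peaks (grey cells, darker where more peaks lie) and for the members in Fmn1 introns (blue) and outside (orange). The dashed line is the score of 7.66, and all 14 members lie to its right.

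The −453 kb and 19.6 kb sites were the most alike in sequence, and they were the 2 of 14 members with a summit in repeat-masked sequence, against 17.4% of all optimal peaks. Their sites shared 18 of 20 letters, and no other pair of members shared more than 16. They had in common the 21 letters GCCAGAAGAGGGCANCAGATC, with 1 free position. On either strand, these letters occurred 2 times in the 900 kb, once under each of these members. Within the 300 bp around the summit they occurred in 1.31% of all optimal peaks, and in 0.0721% of windows of that length 1 kb away. Most of these letters belong to the motif sites themselves, so a higher share at CTCF summits was largely built in. The distant windows were not matched for repeat masking. The share was 7.15% of the 8669 peaks with a summit in repeat-masked sequence and 0.0848% of the 41290 others. Rodent genomes are known to carry CTCF motifs in short interspersed repeats of the B2 family, but the masking used here names no family. The signals of these 2 members were near the opposite ends of the range, 201.9 at −453 kb and 27.7 at 19.6 kb. These letters were picked once the sites had been seen.

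Of the members, 5 had the motif on the plus strand and 9 on the minus strand, with 3 plus and 4 minus in Fmn1 introns and 2 plus and 5 minus outside. Over all optimal peaks of the main chromosomes 20659 had it on the plus and 20820 on the minus strand. On chromosome 2 these were 1560 and 1609. The members are few, and the difference in strand was not tested. The 3 Scg5 sites all lay on the minus strand. Along the chromosome the 13 neighbouring pairs fell into 8 with motifs on the same strand, 3 pointing apart and 2 pointing towards each other. The shares of these kinds over all optimal peaks were not computed, so these counts only describe the locus. Both pairs that point towards each other lay in Fmn1. One joined the sites of intron 2 at −368 kb and −359.6 kb, which are 7.94 kb apart, and the other joined the −223 kb site of intron 7 to the −110.3 kb site of intron 15, which are 112.6 kb apart. The nearest site on each side of the Grem1 start, at −110.3 kb and at 19.6 kb, had its motif on the minus strand. Loops were not measured.

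Grem1 lay in a wide stretch without members. Its start fell in the gap of 129.9 kb between the −110.3 kb and 19.6 kb peaks, longer than 91.8% of the gaps between neighbouring optimal peaks. The gap of 112.6 kb before it, within Fmn1, was longer than 90.1% of them. Together these made a stretch of 242.4 kb with a single member, the −110.3 kb peak. The Fmn1 start lay in a gap of 85.6 kb, longer than 86.3%. Long gaps cover more of the genome, so a given start is more likely to fall in one. The 91.8% and 86.3% count each gap once and thus do not show that these starts are unusual. The median gap was 38.6 kb between members, against 18.1 kb over all optimal peaks. The next optimal peaks beyond the locus lay 421.7 kb before its first member (signal 43.3) and 279.4 kb after its last (signal 144.5).

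The full pooled list of 300000, which goes far below the optimal one, had faint peaks near the Grem1 start and the first Fmn1 start. Near the Scg5 start it had none closer than the member 5009 bp away. The faint peaks given here were chosen after their values were seen. One lay 41 bp from the Grem1 start at chr2:113758605, with a pooled signal of 10.1, 5.36 in replicate 1 and 7.04 in replicate 2. Another, in the Grem1 intron at chr2:113755437, had 11.2, and was matched in replicate 2 (11.1) but had no summit within 100 bp in replicate 1. At the first Fmn1 start the nearest one lay 427 bp away with a signal of 7.20. A start of Ryr3 also had one, 270 bp away with 11.8. The share of all gene starts with such a faint peak was not computed. All these faint peaks were weaker than the weakest member (27.7). In the 242.4 kb around Grem1 there were 33 such weaker peaks, with a highest signal of 12.8. Over the whole locus the pooled list held 100 peaks, of which 86 were no members, with a median signal of 6.17. A motif lay under 12 of these 86, and all 86 were 276 bp wide.

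The conservative list held 16 peaks in the locus, which are the 14 members and 2 others. The first lies in Fmn1 intron 5 with a pooled signal of 23.0 (12.3 in replicate 1 and 10.03 in replicate 2). The second is intergenic with 29.5 (16.1 and 12.8), more than the weakest member had (27.7). Why the conservative list holds peaks that the optimal list lacks is not stated in the deposited notes. Their sites are shown because both peaks held a motif and a summit in each replicate.

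Fmn1 intron 5, −259.7 kb, chr2:113498897-113498936, minus strand: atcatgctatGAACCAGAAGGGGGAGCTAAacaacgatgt
Intergenic, 208 kb, chr2:113966574-113966613, plus strand: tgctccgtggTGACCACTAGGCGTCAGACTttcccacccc

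Both were among the strongest 49970 peaks of each replicate. Each replicate's strongest 49970 held 17 peaks in the locus, and the remaining one was in an Scg5 intron in replicate 1 (10.7) and in the Grem1 intron in replicate 2 (11.1), each without a partner in the other replicate.

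Genes related to those of the locus differed in whether CTCF bound at their starts. A gene was counted when an optimal summit lay within 1 kb of any of its annotated starts, as was the case for 33.4% of protein-coding genes. None of Grem1, Fmn1 and Scg5 met this. Among 16 BMP antagonists 6 did, with a peak of 268.6 at Fstl3, a follistatin-like antagonist (135.6 in replicate 1 and 132.8 in replicate 2), and of 237.4 at Chrdl2, a chordin-like one (127.5 and 111.8). Twsg1, which modulates BMP binding by chordin, had 129.2 (62.0 and 63.6). The peaks of noggin (Nog), chordin (Chrd) and follistatin (Fst) were weaker, at 16.6, 24.3 and 54.9. Of 15 genes of the limb signalling loop 5 met the rule, with 187.2 at Smad4, a transducer of BMP signals (101.4 and 87.5). The other 4 were weak: 32.0 at the ligand gene Bmp4 (18.9 and 14.8), 26.1 at the receptor gene Bmpr1a (15.9 and 8.38), 23.5 at Fgf9 and 22.7 at Ptch1. Shh, Gli3, Fgf4 and Fgf8 had none. Among 13 formins 8 met it, led by Diaph1 with 302.4 (160.3 and 145.2), and Fhod3 with 207.7 (102.7 and 105.9) and Fmnl3 with 198.3 (102.2 and 97.5) followed. Of 9 granins and their partners 2 met it, Scg2 with 47.2 (23.7 and 22.2) and Chgb with 29.2 (12.2 and 13.0). These lists are small, and their counts are descriptions beside the 33.4%.

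Lmbr1 and Hdac9 are other genes whose introns hold limb enhancers of a neighbouring gene, Shh for Lmbr1 and Twist1 for Hdac9. Fmn1 held 7 peaks (1.80 per 100 kb, 0.723 to 3.71) with a median signal of 165.5. Lmbr1 held 3 peaks (2.02 per 100 kb, 0.416 to 5.90) with a median of 82.7, and Hdac9 held 12 (1.38 per 100 kb, 0.713 to 2.41) with a median of 42.4. The exact Poisson intervals overlap. The strongest peak in Fmn1 (190.7) was weaker than the strongest in Lmbr1 (250.8) and in Hdac9 (197.9), and its weakest (35.5) was stronger than the weakest in Lmbr1 (27.7) and in Hdac9 (16.8).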

How the data were processed

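Narrow peak lists of CTCF ChIP-seq on the mm10 build were used: an optimal, a conservative and a pooled list, and 1 list per replicate. Per the notes deposited with each library, the pooled list was derived from both libraries' alignments, and the optimal and conservative lists, named as thresholded by irreproducible discovery rate, from the replicate and pooled lists. No aligner, peak caller, control or threshold is given in the sources used here. Signal and the capped −log10 q-value of each peak are the authors' deposited values, and the deposited score, filled in the optimal and conservative lists, was used only to describe peaks. Read depth is unknown, as no counts are in the lists, so signals were ranked within 1 list. Values of both replicates at a peak are given only as description, and before taking a log2 ratio each was divided by the median of its replicate at optimal peaks.

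Replicate values are the nearest summit within 100 bp in each full list of 300000 peaks. The strongest 49970 peaks per replicate gave lists of equal length. Places came from GENCODE M21 on GRCm38.p6, and intron numbers from the longest Fmn1 transcript. Windows of 900 kb with at least 90% sequence were compared. The motif matrix of 20 bp was started from a CTCF core sequence set beforehand and refined in 10 rounds on 999 of the 1000 training peaks. Intervals are exact 95% Poisson intervals for counting error. The steps used Python 3.11.15, numpy 2.4.6, scipy 1.17.1 and pandas 2.3.3. Of them, the motif search and the matching of summits were tested on simulated data.

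The members and gene lists were chosen with earlier results of these data known. The named peaks are all members and the 2 peaks of the conservative list alone, and further weak peaks were chosen after their values were seen. The named genes are those that overlap the region or start nearest to a member, and listed genes with a promoter peak, the 3 strongest of each list with replicate values. Listed genes named without a peak were chosen after their values were seen. Other peak lists, windows, replicates and promoter widths were tried as alternatives.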

Additional observations from a re-analysis of the deposited data

How the results depend on the processing

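With the conservative list the median signal of the locus was 132.0, and 97.8% of windows had a lower median signal. Its peak count was at percentile 57.6 of windows, ties split evenly here and below. With the strongest 50% of optimal peaks the count was at percentile 69.0 of windows. Without 1 replicate, the median signal of the members on the other replicate's own scale was 76.8 to 77.2. The count among that replicate's strongest peaks was at percentile 59.2 of windows in both cases. Alternatives for the ranking by signal were added after the data were examined: 99.2% of windows with 10 to 20 peaks ranked lower, 99.3% with the window grid moved, and 99.5% to 99.6% without 1 replicate. Fmn1 ranked above 98.3% of long genes in the conservative list and above 97.2% to 98.3% without 1 replicate. These rankings by signal without 1 replicate kept the members, which come from a list made with both replicates. They changed the values alone and are no independent check of the choice of peaks. Promoter counts depended on the distance allowed. Within 5000 bp, 12 BMP antagonists, 11 genes of the limb signalling loop and 4 granins or partners had a peak, and within 500 bp 2 genes of the limb signalling loop did. Of all protein-coding genes, 52.0% had one within 5000 bp and 26.8% within 500 bp. The share of BMP antagonists was thus above that of all genes at 1 kb (37.5% against 33.4%) and below it at 500 bp (4 of 16 genes against 26.8%). The share of limb signalling genes was at that of all genes at 1 kb (33.3% against 33.4%), above it at 5000 bp (73.3% against 52.0%) and below it at 500 bp (13.3% against 26.8%). Only 1 start is annotated for Grem1, so the alternative start planned for it could not be run. No paired analysis was possible because the series holds a single group. The lists hold no read counts, so how far depth limits the weak peaks is unknown.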
